A study of Malus domestica with 5 samples.

Results

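Juvenile-enriched repeats of low to middle abundance are numbered repeat loci of apple (Malus domestica) to which more small RNA reads were assigned in juvenile-phase than in reproductive-phase buds, relative to the sum of counts of each library. They were selected by 3 conditions on the counts themselves: a mean count over the 5 libraries under 1000, at least 20 counts in both juvenile libraries, and a lower juvenile value at least 1.5 times the highest reproductive value, in CPM, the count over the column sum times 1000000. That quotient is called the ratio below. Of 429395 numbered repeats, 143878 lay within the count limits, and 1191 of these met the ratio. The juvenile group held 2 libraries of juvenile-phase buds, whose tissue label names suckers of juvenile character at the base of the stem, and the reproductive group held 3 libraries of reproductive-phase buds. The labels name no cultivar, age or treatment and do not say whether replicates came from separate trees, and because the suckers occur in the juvenile group alone, phase and place on the tree cannot be told apart. In bulk buds, fewer cells of a type and less small RNA per cell cannot be told apart either.

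In plants, most small RNAs from repeats and transposable elements are small interfering RNAs. RNA polymerase IV transcribes such loci, the polymerase RDR2 makes the transcript double-stranded, DICER-LIKE3 cuts it, and ARGONAUTE4-type proteins carry the products back to the locus, where they direct DNA methylation. Inverted repeats that fold into hairpins, and transcripts that enter secondary siRNA production, feed other DICER-LIKE enzymes and yield shorter products. An apple seedling does not flower during its juvenile phase, and the comparison asks which small RNAs differ on either side of that transition.

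The libraries hold gel-selected RNAs of 19 to 24 nucleotides. The sums of counts were 97283456 and 85087230 in juvenile replicates 1 and 2, and 140173167, 122455352 and 123231156 in reproductive replicates 1, 2 and 3. The deposited table gives each repeat a number and 5 counts, so the repeats are described below by their counts and by their place in the numbering, and 2 of them are named. A CPM is not divided by the length of the repeat, so differences in CPM between repeats are differences in assigned reads and not in reads per length. Repeats within the count limits took up 22.0% and 20.0% of all counts in juvenile replicates 1 and 2, while in reproductive replicates 1, 2 and 3 they took up 36.1%, 36.6% and 38.1%. The typical repeat of this abundance was therefore lower in the juvenile libraries on the CPM scale. Over the other 142687 repeats within the limits, the mean juvenile CPM was 0.526 times the mean reproductive CPM at the median. Their median ratio was 0.451, and 95.6% of the repeats within the limits had a ratio below 1. The ratio sets the lower juvenile against the highest reproductive value, so it leans below 1 even between equal groups. The juvenile-enriched repeats made up 0.828% of the repeats within the limits. In 59.0% of the same repeats every reproductive CPM was at least 1.5 times both juvenile ones.

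**Figure D1:**
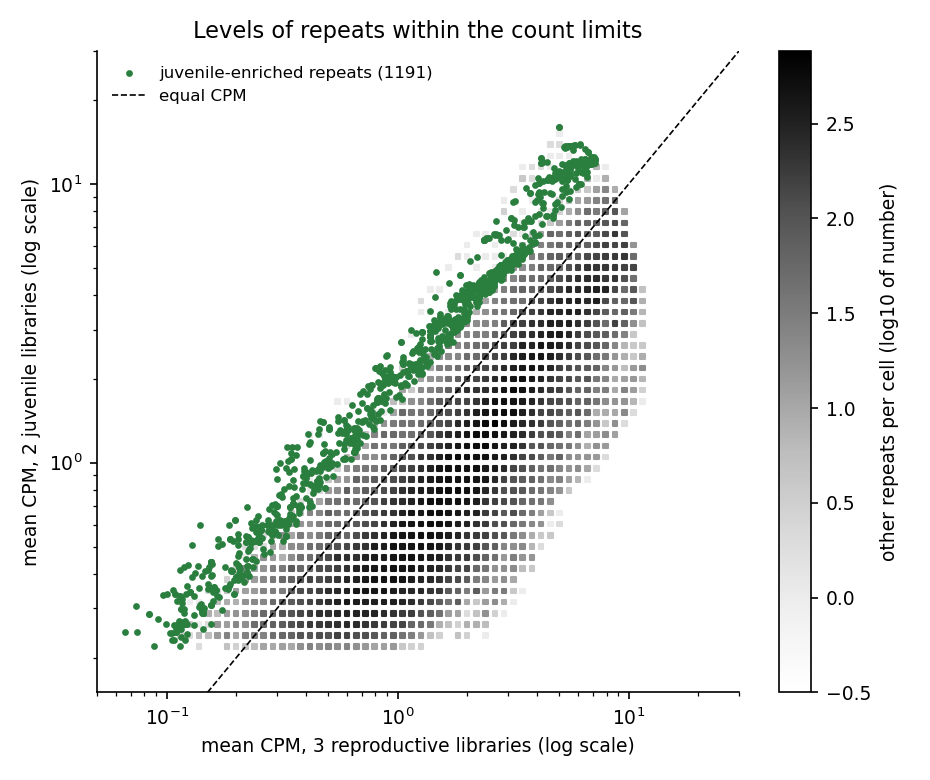
Mean CPM in the 2 juvenile libraries (vertical, log scale) against mean CPM in the 3 reproductive libraries (horizontal, log scale) for repeats within the count limits. Green points are the 1191 juvenile-enriched repeats, grey cells are the other repeats shaded by their number, and the dashed line marks equal CPM; the green points follow the upper edge of the cloud at all levels.

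Because the ratio defined the repeats, their levels and differences are a description. Across the juvenile-enriched repeats, CPM ran from 0.206 to 15.8 in juvenile replicate 1, with a median of 2.73, and from 0.235 to 16.1 in juvenile replicate 2, with a median of 2.83. In reproductive replicates 1, 2 and 3 the medians were 1.41, 1.39 and 1.31, and the highest values were 7.49, 7.42 and 7.17. The groups do not overlap for any of these repeats, since the selection requires it, and the ranges over repeats overlap widely. The mean juvenile CPM was 1.97 times the mean reproductive CPM at the median repeat, with quartiles of 1.77 and 2.22 and extremes of 1.55 and 4.32. No repeat was without counts in a reproductive library, the lowest count there being 6, so the difference is one of level and not of presence.

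Most ratios were modest. For 985 of the repeats (82.7%) the ratio lay between 1.5 and 2, for 171 (14.4%) between 2 and 2.5, for 32 (2.69%) between 2.5 and 3, and for 3 above 3. The ratios ran on without a gap across the limit. The repeat just inside had juvenile values of 4.14 and 4.35 CPM beside reproductive values of 2.76, 2.12 and 2.26 CPM. The repeat just outside had juvenile values of 0.576 and 0.588 CPM beside reproductive values of 0.271, 0.384 and 0.268 CPM. At the limit on abundance, the last repeat inside had a mean count of 998.6 and a ratio of 1.68, and the first one outside had a ratio of 1.60.

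The repeat with the highest juvenile CPM was repeat_1258320, which shared all 5 counts with the next number. It had 1537 and 1370 counts in juvenile replicates 1 and 2, and 731, 627 and 574 counts in reproductive replicates 1, 2 and 3. In CPM this was a juvenile mean of 15.95 ± 0.213 (SD, n = 2) over a reproductive mean of 4.998 ± 0.298 (SD, n = 3), a 3.19-fold difference with a ratio of 3.03. Both juvenile libraries were close to each other, and so were the 3 reproductive ones. The largest ratio, 3.36, belonged to repeat_1260615, a repeat of low counts, with 56 and 53 juvenile counts and 24, 21 and 9 reproductive counts. Its juvenile mean was 0.599 ± 0.0334 CPM (SD, n = 2) and its reproductive mean 0.139 ± 0.0568 CPM (SD, n = 3), a 4.32-fold difference. Reproductive replicate 3 was the lowest of its 5 libraries, and with 9 counts it is also the one with the widest counting error. No element class or neighbouring gene is assigned to either repeat here.

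Ratios of 2.5 and more occurred at both ends of the range of levels. The 32 repeats with ratios from 2.5 to 3 had a median juvenile CPM of 0.621, compared with 2.85 for those between 1.5 and 2. The profile with the third largest ratio, 2.94, had 55 and 54 juvenile counts and 27, 22 and 23 reproductive counts. The fifth, with a ratio of 2.72, was far higher in counts, with 1180 and 1082 juvenile and 624, 530 and 462 reproductive counts. In both profiles the distance between the groups was wider than that between replicates of either group, which picking profiles by their ratio favours. Below the top profile, the highest levels belonged to profiles with ratios close to 2. The second to the fifth highest juvenile means lay between 13.8 and 13.9 CPM, with ratios of 2.00, 2.06, 2.06 and 2.07.

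The share of repeats that met the ratio depended on the count. It was 33.0% of the 264 repeats with a mean count up to 25 and 2.55% of the 6031 with a mean from 25 to 50. A repeat with at least 20 counts in both juvenile libraries and a mean up to 25 has room for few reproductive counts. The limits thus push the ratio up in the first band, and they can also do so from 25 to 50. How much of the share in either band they account for was not tested. The share then fell to 0.375% of the 43156 repeats with a mean from 100 to 200. It was higher again at 0.725% from 200 to 400, 0.970% from 400 to 700 and 1.85% from 700 to 1000. Above the limit, among the 10961 repeats with a mean of 1000 or more, 1180 met the same ratio (10.8%). Below the limit, 563 of the repeats with 1 to 19 counts in the lower juvenile library did (0.372%). For 212 of the juvenile-enriched repeats the lower juvenile count was under 50, and for 824 it was 100 or more.

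Replicates of a group lay close together. The higher juvenile CPM was 1.07 times the lower at the median juvenile-enriched repeat, against 1.15 times at the other repeats within the limits. Between the highest and lowest of the 3 reproductive libraries the median quotient was 1.16, the same as at the other repeats (1.16). The selection reads the lower of both juvenile values, which may favour juvenile closeness. The order of the juvenile libraries also differed. CPM was higher in juvenile replicate 2 than in replicate 1 for 770 of the 1191 repeats, and for 37713 of the other 142687. Whether the selection or this order accounts for the closer juvenile values was not tested. In 7 bands of mean count within the limits, the median juvenile quotient was lower at the juvenile-enriched repeats in each. The gap was widest from 100 to 200, at 1.076 against 1.183, and narrowest from 25 to 50, at 1.148 against 1.166. From 700 to 1000 it was 1.084 against 1.106.

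Of the 1191 repeats, 864 had a set of 5 counts of their own and 327 (27.5%) shared all 5 counts with at least one other, so that there were 977 distinct profiles. Of the other repeats within the limits, 12.9% shared a profile, and the difference was not tested. Repeats with one profile cannot be told apart and may be counting the same reads at several matches. A profile was shared by 2 repeats in 80 cases, by 3 in 21 cases and by 4 or more in 12 cases, which together held 104 repeats. None of the 977 profiles equalled that of a named or candidate miRNA in the same table.

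The largest set held 23 repeats, over a span of 49 numbers in the block that starts at number 1247000. Each had 503 and 431 juvenile counts and 408, 351 and 325 reproductive counts, or 5.17 and 5.07 CPM against 2.91, 2.87 and 2.64 CPM. The juvenile libraries lay 1.02-fold apart and the reproductive ones 1.104-fold, and the ratio was 1.74. The second set held 14 repeats in the block at 1260000, with 279 and 241 juvenile counts and 245, 166 and 125 reproductive counts. Here the reproductive libraries were spread 1.72-fold, from 1.75 CPM in replicate 1 to 1.01 CPM in replicate 3, while the juvenile ones had 2.87 and 2.83 CPM. A pair of sets of 12 repeats followed at lower counts. One, near 1182000, had 74 and 77 juvenile and 55, 59 and 58 reproductive counts, and its ratio was 1.58. The other, near 1246000, had 76 and 55 juvenile and 47, 41 and 48 reproductive counts, and its ratio was 1.66. The juvenile libraries lay 1.19-fold and 1.21-fold apart in these sets, and the reproductive ones 1.23-fold and 1.16-fold.

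**Figure D2:**
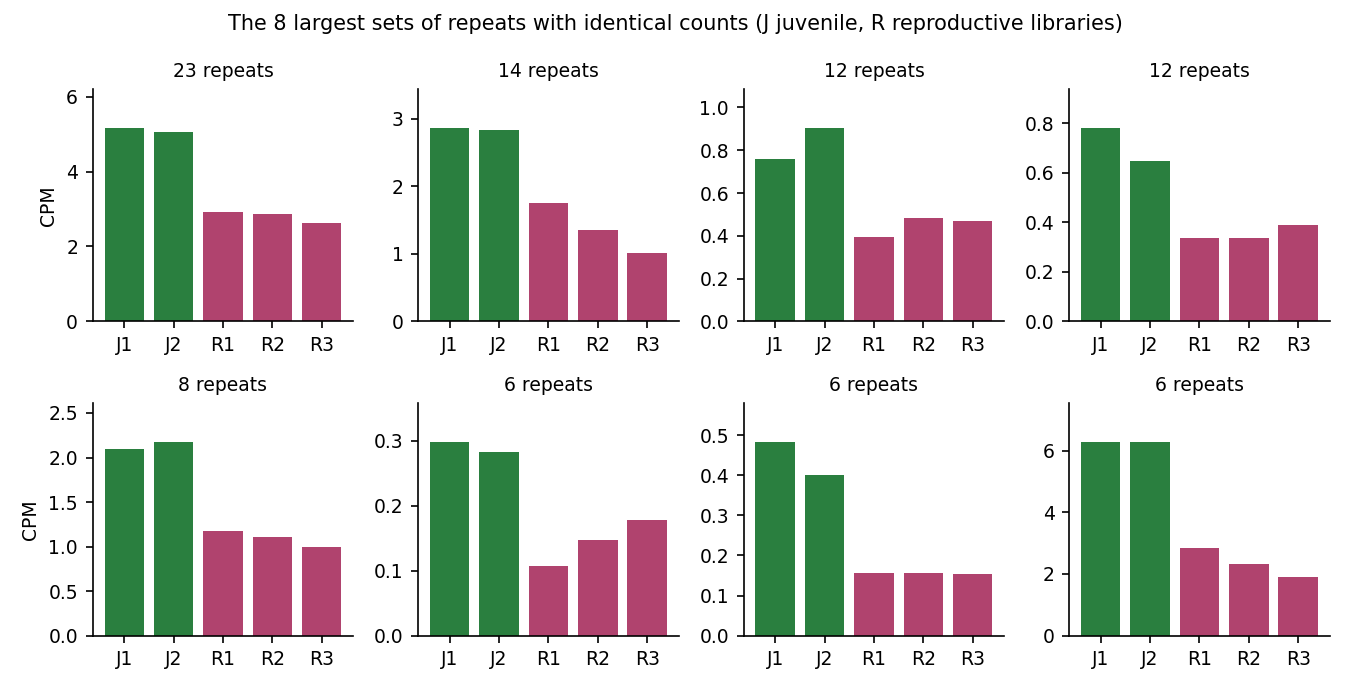
CPM in each library (vertical, a scale per panel starting at 0) for the 8 largest sets of juvenile-enriched repeats with identical counts; J1 and J2 are the juvenile and R1 to R3 the reproductive libraries, and each panel title gives the number of repeats. Both green bars exceed all 3 red bars in each panel, and the reproductive bars of the set of 14 repeats spread from 1.75 to 1.01 CPM.

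The sets with fewer repeats covered a range of levels. A set of 8 repeats had 204 and 185 juvenile and 165, 136 and 123 reproductive counts, with a ratio of 1.78. Of 3 sets of 6 repeats, the most abundant had 611 and 534 juvenile and 398, 284 and 235 reproductive counts, with a ratio of 2.21, and lay in the same block as the set of 14. Another set of 6 had the largest ratio among these sets, 2.55, from 47 and 34 juvenile and 22, 19 and 19 reproductive counts. Its reproductive libraries lay 1.02-fold apart and its juvenile ones 1.21-fold. Of the 113 shared profiles, 98 were confined to numbers with gaps of at most 1000, and 42 formed a single unbroken run of numbers. The other 15 recurred in 2 or more places of the numbering.

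Further profiles had similar counts. When distinct profiles were joined in chains wherever all 5 counts lay within 5% of each other, so that the ends of a chain can lie further apart, the 977 profiles fell into 623 groups, and 14 groups of 10 or more repeats held 344 of the 1191 repeats. The largest joined 53 profiles of 70 repeats at 10 places of the numbering, with juvenile counts from 494 to 585 in replicate 1 and from 424 to 501 in replicate 2. Its ratios ran from just above 1.5 to 1.70. Similar profiles under 1.5 were not among those joined, so the rule sets the lower end of this range. The second joined 33 profiles of 48 repeats, also at 10 places, with ratios from 1.52 to 1.65 and mean juvenile levels from 2.92 to 3.37 CPM. The third joined 32 profiles of 35 repeats at 10 places with ratios from 1.58 to 1.74, at mean juvenile levels from 11.5 to 12.5 CPM. The 3 groups differ in level and overlap in ratio, and each is scattered over the numbering. The same joining was not done for the other repeats, so these numbers describe the juvenile-enriched repeats alone. Whether similar profiles share reads was not tested, and no error is given over repeats.

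Some neighbouring numbers were juvenile-enriched together, and 923 of the 1191 repeats had no juvenile-enriched repeat at an adjacent number. A juvenile-enriched repeat stood at the adjacent number for 268 of the 1191 repeats (22.5%), in 106 runs, of which 30 held 3 or more and 6 held 5 or more. Of the repeats within the count limits, 82.2% had another one within the limits, of any ratio, at the adjacent number. That share measures how densely such repeats are numbered and is not a reference for the 22.5%. Looking from each juvenile-enriched repeat to the numbers just below and just above gave 2382 places. Of these, 53.3% held a repeat with under 20 counts in a juvenile library, against 63.9% of all repeats. Among the 1007 places with a repeat within the limits, 324 (32.2%) were juvenile-enriched, against 0.828% of all repeats within the limits. Of 162 adjacent pairs of juvenile-enriched repeats, 92 (56.8%) had identical counts, against 4.16% of the 93827 adjacent pairs within the limits. A neighbour with identical counts meets the rule by construction, while any other neighbour has to meet it by its own counts. The selection thus raises the first share, and the 2 shares are not like for like. Without neighbours of identical counts, the share of juvenile-enriched repeats next to another was 10.6%.

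The longest unbroken run held 12 repeats in the block at 1260000 and 4 distinct profiles. Of these, 9 belonged to the set of 14 with identical counts, and the others were higher, up to 7.44 and 7.22 CPM in juvenile replicates 1 and 2, beside 3.10, 2.66 and 2.21 CPM in reproductive replicates 1, 2 and 3. The ratios in the run lay between 1.62 and 2.33. The remaining 5 repeats of the set of 14, which spans 351 numbers, lay in another run of the same block, and 5 repeats of the most abundant set of 6 followed them after a gap. With gaps of up to 5 numbers allowed, the longest stretch held 18 repeats among 28 successive numbers in the block at 1247000. All but 1 of these belonged to the set of 23, and the 10 numbers in between had from 0 to 16 counts in the juvenile and from 0 to 29 in the reproductive libraries. Numbers with about 5 CPM in the juvenile libraries thus alternate there with numbers that hold few reads.

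The repeats were unevenly placed along the numbering, which runs from 852466 to 1292654 and has a row for 97.5% of its numbers. Of 428 blocks of 1000 numbers with a repeat within the limits, 138 held a juvenile-enriched one. The 33 blocks with 10 or more held 880 of the 1191 (73.9%), but 7.83% of the repeats within the limits. The densest block, at 1219000, held 73 juvenile-enriched repeats in 62 profiles among 206 within the limits (35.4%). The next, at 1132000, held 62 of 227 (27.3%), and the third, at 1220000, held 61 of 301 (20.3%). These blocks are rich in distinct profiles, and so differ from the block at 1247000, where 39 repeats gave 17 profiles. What the numbering follows is not given in the sources used here.

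**Figure D3:**
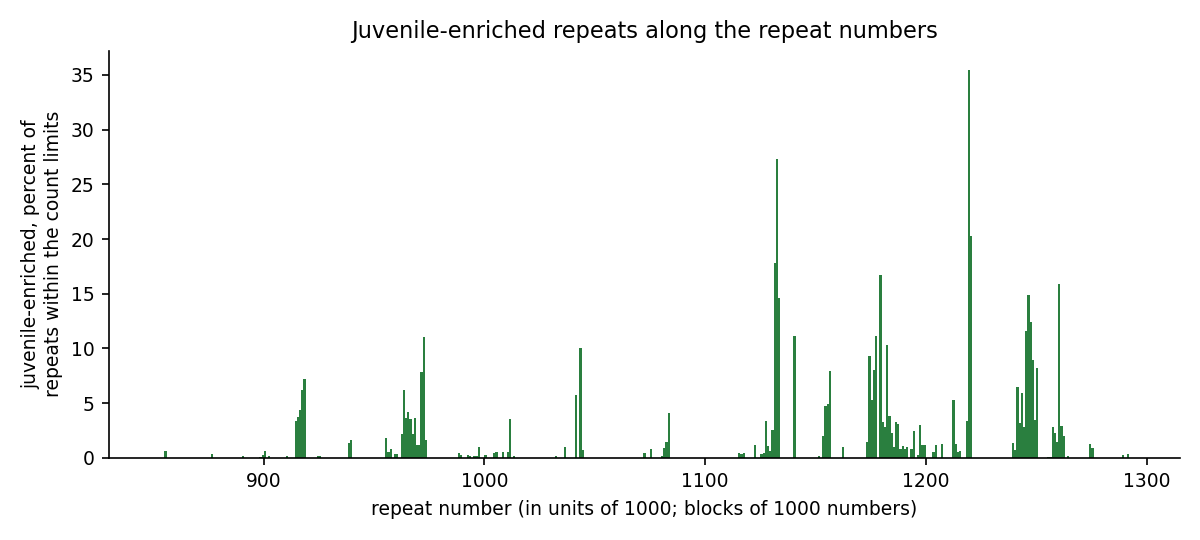
Juvenile-enriched repeats as a percent of repeats within the count limits (vertical) in blocks of 1000 repeat numbers (horizontal, in units of 1000). The tallest bars stand at 1219000 with 35.4% and at 1132000 with 27.3%, and 290 of the 428 blocks hold none.

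The largest ratios clustered in a stretch of low counts between numbers 1130000 and 1133999, the 4 adjacent blocks with the most of the 20 profiles of largest ratio. It held 126 juvenile-enriched repeats in 114 profiles among 757 repeats within the limits (16.6%). Their median CPM was 0.689 and 0.770 in juvenile replicates 1 and 2, and 0.314, 0.335 and 0.288 in reproductive replicates 1, 2 and 3. Both juvenile medians exceeded all 3 reproductive ones, as the selection requires. These levels are far below the medians over all juvenile-enriched repeats, while the median ratio in the stretch was 1.94, beside 1.69 elsewhere. Of those 20 profiles, 15 came from this stretch. The stretch was chosen by where these profiles lie, so this number and the higher median ratio are favoured by that choice. For 50 of its 126 repeats the lower juvenile count was under 50, where counting error weighs on the ratio. A contrasting block at 918000 held 29 juvenile-enriched repeats with a median juvenile CPM of 10.4 and a median ratio of 2.01.

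The other repeats near juvenile-enriched ones were shifted the same way, though by definition none of those within the limits reached a ratio of 1.5. At the adjacent number their median ratio was 0.812 (663 repeats), at 2 to 5 numbers 0.741 (2211 repeats), at 6 to 50 numbers 0.599 (10956 repeats), and beyond 50 numbers 0.438 (128857 repeats). The share with a ratio above 1 was 31.2% at the adjacent number and 2.01% beyond 50 numbers. Repeats outside the count limits could not be selected. Of 102 abundant repeats (mean count of 1000 or more) at an adjacent number, 55.9% had a ratio of 1.5 or more, against 10.8% of all abundant repeats. Of 195 repeats with 10 to 19 counts in the lower juvenile library at an adjacent number, 2.56% did, against 0.282% of all such repeats. Neighbouring numbers may share reads, so they are not independent, and these differences were not tested.

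**Figure D4:**
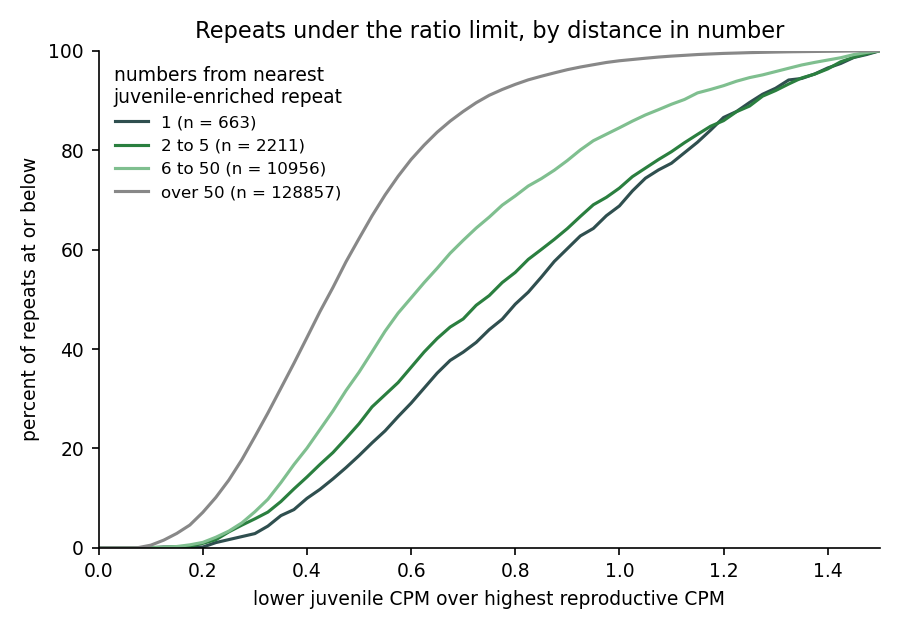
Cumulative percent (vertical) of repeats within the count limits that stayed under the ratio of 1.5, by their ratio of the lower juvenile to the highest reproductive CPM (horizontal), in 4 classes of distance in number from the nearest juvenile-enriched repeat. The curves shift to higher ratios as the distance shrinks, from a median of 0.438 beyond 50 numbers to 0.812 at the adjacent number.

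Blocks rich in juvenile-enriched repeats differed in the ratios of their other repeats. In the block at 1219000 the other repeats within the limits had a median ratio of 1.17, and 75.2% of them were above 1. In the block at 1132000 the median was 0.902 and the share above 1 was 26.1%. In the block at 1247000 the median was 0.599, and in the block at 1241000, with 32 juvenile-enriched repeats, 0.411, below the 0.451 of all other repeats. A juvenile CPM above the reproductive ones was thus shared by most repeats within the limits at 1219000, and not at 1241000.

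The juvenile-enriched repeats were chosen with all libraries, so no library was left to test them. To see whether the rule itself carries over, it was applied to 1 juvenile and 2 reproductive libraries. The held-out juvenile library was then compared with the held-out reproductive one. Each split chose its own set of repeats, from 1794 to 2285 of them. With juvenile replicate 2 and reproductive replicate 3 held out, 1794 repeats were chosen at a median ratio of 1.72, and their median quotient of CPM in the held-out pair was 1.85. Of these repeats 82.6% reached 1.5 in the held-out pair, the highest share of the 6 pairs, against 1.86% of the 165316 repeats in the same count range. Over the 6 possible pairs the share ran from 65.6% to 82.6%, and the share above 1 from 89.5% to 95.4%. The background for a quotient of at least 1.5 was 1.92%, 1.64% and 1.83% with juvenile replicate 1 over reproductive replicates 1, 2 and 3, and 1.77%, 1.62% and 1.86% with juvenile replicate 2. With juvenile replicate 1 held out the shares were 65.6%, 70.8% and 68.8% for reproductive replicates 1, 2 and 3, and with juvenile replicate 2 held out they were 78.4%, 69.5% and 82.6%. One library against one allows no test, and repeats that may share reads are not independent. The shares describe the sets chosen in each split and do not test the juvenile-enriched repeats.

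**Figure D5:**
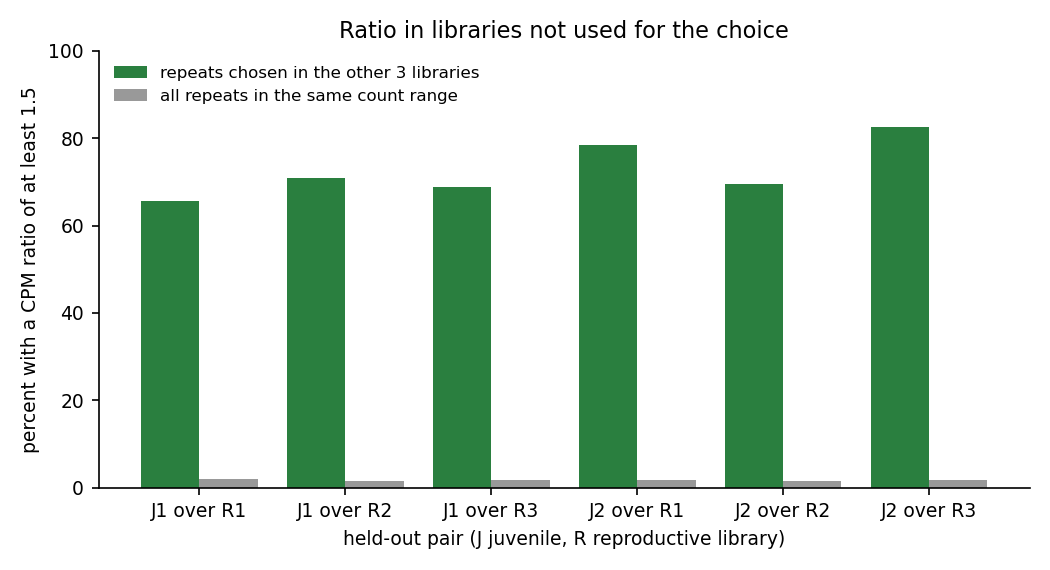
Percent of repeats whose CPM in a held-out juvenile library was at least 1.5 times that in a held-out reproductive library (vertical), for the 6 held-out pairs (horizontal). Green bars are repeats chosen in the other 3 libraries (65.6% to 82.6%), a set for each pair. Grey bars are all repeats in the same count range (1.62% to 1.92%). No bar tests the juvenile-enriched repeats, which were chosen with all libraries.

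How the libraries are scaled sets the size of the fold change between groups, and hardly the distance from the typical feature. With TMM factors, which put the typical feature at about equal level in both groups, the fold change of these repeats was larger. In edgeR's fit over all 282619 features with enough counts, the median log2 fold change (reproductive over juvenile) of the 1191 repeats was -2.10, with quartiles of -2.27 and -1.94, beside 0.08 over all features. Scaled on the column sums the medians were -0.98 and 1.19. The median of the repeats minus that of all features was -2.17 under TMM and -2.16 on the column sums, on the log2 scale. A change of scaling shifts all features by nearly the same amount, so this near equality is built in. All 1191 repeats entered the fit, and all were among the features called lower under TMM, where 24.3% of all features were, and under the column sums, where 2.46% were. The selection used the same contrast, so nothing is read from these counts. For repeat_1258320 the TMM log2 fold change was -2.80 (SE 0.10), and -1.67 (SE 0.08) on the column sums. For repeat_1260615 it was -3.20 (SE 0.29), and -2.09 (SE 0.29) on the column sums. Under TMM library sizes the ratio condition was met by 21956 repeats (15.3% of those within the limits), among them all 1191.

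The 1191 repeats took up 0.438% and 0.456% of all counts in juvenile replicates 1 and 2, and 0.233%, 0.233% and 0.222% in reproductive replicates 1, 2 and 3. With each distinct profile counted once the shares were 0.371% and 0.388% in juvenile and 0.197%, 0.198% and 0.189% in reproductive libraries. These shares restate the selection on the scale of the whole library.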

How the data were processed

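Small RNA libraries of apple buds, 2 juvenile and 3 reproductive, were analysed from whole-number counts of reads for each feature, which the authors deposited without normalization. The submitters' processing notes name Bowtie 1.1.2. How reads with several matches were handled, with how many mismatches, on which genome build and with which repeat annotation is not given in the sources used here. Columns were matched to libraries by the sample titles. CPM is the count over the sum of the column. The rule, runs, identical profiles and held-out ratios were computed in Python 3.11.15 with pandas 2.3.3, numpy 2.4.6 and scipy 1.17.1; a held-out reproductive count under 3 was set to 3. Fits were run over the whole table in R 4.3.3 with edgeR 4.0.16 (TMM, glmQLFit and glmQLFTest, a minimum of 10 counts in 2 or more libraries, Benjamini-Hochberg threshold 0.05), with DESeq2 1.42.0 as an alternative, after a check on simulated data. The standard error is the log2 fold change over the square root of F.

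The repeats and the measures were chosen with earlier results of these data known. The repeats named are the one with the highest mean juvenile CPM and the one with the largest ratio. The files pair the repeats with no names or sequences, and the gene table of apple was not used. Replicates 1 and 2 occur in both groups, but the labels give the numbers no shared origin. Spread between libraries may be technical, and counting error aside, the number of distinct reads is unknown. Alternatives were other library scalings, count and ratio limits, distinct profiles, a fit with replicate number and leaving out each library.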

Additional observations from a re-analysis of the deposited data

How the results depend on the processing

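The number of juvenile-enriched repeats (1191) depended most on the scaling: it was 21956 with TMM library sizes and 22591 with DESeq2 size factors, and it was 206 with a ratio of 2. Leaving out a library removes a condition and shifts the mean count, and the number then lay between 1318 (without reproductive replicate 3) and 1899 (without juvenile replicate 1, the one library whose absence moved it by over 1.5 times), with 1158 or more of the 1191 among them in each case. It was 979 with a minimum of 50 counts and 977 with each profile once. All of the repeats were called lower under each fit tried, with distinct profiles 977 of 977, which the selection favours. Their median log2 fold change was -0.98 on the column sums and from -2.24 to -1.95 when a library was left out. In the replicate block fit it was -2.05, with 1191 called lower; deviations of same-numbered libraries correlated at -0.13 (number 1) and -0.03 (number 2), and the labels give no pairing. The held-out share is that of repeats chosen anew for each pair and does not test the juvenile-enriched repeats. On the column sums it was the highest of the pairs, 82.6%, with juvenile replicate 2 and reproductive replicate 3 held out. With juvenile replicate 1 held out it was 65.6%, 70.8% and 68.8% for reproductive replicates 1, 2 and 3. It was 69.5% with juvenile replicate 2 and reproductive replicate 2 held out. With TMM library sizes the 82.6% became 90.9%, where 27.6% of all repeats in range reached 1.5 against 1.86% on the column sums. The share of repeats next to another (22.5%) was 15.5% with a ratio of 2, 45.3% within 5 numbers and 10.6% without identical neighbours. Of all repeats within the limits, 97.2% had another one of any ratio within 5 numbers, which is an unlike measure. Apart from construction, the cause of these shifts was not tested. Depth limits the ratio of repeats near 20 juvenile counts.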

Other observations

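The order of libraries within a group differed between the juvenile-enriched repeats and the rest. CPM was higher in juvenile replicate 2 than in replicate 1 for 64.7% of the 1191 repeats, and for 26.4% of the other repeats within the count limits. The highest reproductive CPM was in replicate 3 for 20.3% of the juvenile-enriched repeats and for 50.5% of the others, in replicate 2 for 41.1% and 22.0%, and in replicate 1 for 38.5% and 27.5%. The selection reads the lower juvenile and the highest reproductive value, so these shares are given as values, and the differences were not tested.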
